A study of Mus musculus with 6 samples.

Results

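The cytoplasmic ribosomal protein genes are the genes whose products, together with ribosomal RNA, build the large and the small subunit of the ribosome. They were chosen here by symbol: Rpl or Rps followed by a number, an optional letter and an optional digit, with Rpsa, Rplp0, Rplp1, Rplp2 and Rpl22l1 added. The rule found 84 genes of the 23238 symbols in the files, 51 of the large and 33 of the small subunit, and 7 of the 84 are paralog copies (Rpl3l, Rpl7l1, Rpl10l, Rpl22l1, Rpl39l, Rps4l and Rps27l). The rule itself used no measured value. The group was put forward with results of these data known, so its counts describe the group and are no independent test of it.

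The data were 6 libraries of mouse embryonic stem cells of strain 129/Ola, named Niwa in the labels, 3 from a stable EGFP line and 3 from a stable line labelled EWS-OCT-4 and EWS OCT4A-GFP, called the EWS-OCT4 line here. The name joins EWS, the protein rearranged in Ewing sarcoma, to isoform A of the pluripotency factor OCT-4. Both lines grew with LIF and received doxycycline (1 µg/ml), given to reduce the cells' own OCT-4, so no library shows either line without the drug. Each construct is represented by 1 line, and neither the clonality of the lines nor the promoter of the constructs is given in the labels. The fusion and any other difference between these 2 lines cannot be told apart. Separate cultures for the 3 libraries are not stated in the labels, and the p-values reflect the spread among these libraries alone, part or all of which may be technical.

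Ribosomal proteins are made in near-equal amounts, because each ribosome needs 1 copy of almost every one of them. Their mRNAs usually begin with a C followed by a run of pyrimidines, the 5′ terminal oligopyrimidine (TOP) tract, through which the kinase complex mTORC1 and the protein LARP1 set their translation. Fast-dividing stem cells make many ribosomes. Some ribosomal proteins have paralogs with tissue-limited use, and some act outside the ribosome.

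The start sites of 8 genes are shown for a pyrimidine run at the annotated start. In 2 of them, copies whose levels are described further on, no run began there. The letters run 5′ to 3′ on the coding strand, 15 bases before the RefSeq start and 15 from it on (GRCm38.p6). Capitals mark a C with at least 4 more C or T bases, if it began within 5 bases of that start. Runs that began further away, such as those in Rpl10l and Rpl39l, are in small letters, so the marking depends on the annotated start.
Rpl13a (chr7:45128731-45128760, minus): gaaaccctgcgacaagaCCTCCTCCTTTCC
Rpl27a (chr7:109519180-109519209, plus): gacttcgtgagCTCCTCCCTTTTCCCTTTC
Rps18 (chr17:33955651-33955680, minus): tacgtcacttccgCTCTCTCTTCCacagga
Rps6 (chr4:86857353-86857382, minus): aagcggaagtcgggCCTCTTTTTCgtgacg
Rpl38 (chr11:114668565-114668594, plus): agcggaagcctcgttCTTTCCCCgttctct
Rps24 (chr14:24490663-24490692, plus): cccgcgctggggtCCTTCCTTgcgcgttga
Rpl10l (chr12:66284387-66284416, minus): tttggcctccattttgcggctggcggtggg
Rpl39l (chr16:10170213-10170242, plus): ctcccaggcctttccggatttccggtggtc
A promoter was held for 63 of the 84 genes. In 28 of the 63 (44.4%) a C with at least 4 more C or T bases began within 5 bases of the annotated start, against 18.5% of all 27025 promoters. Over the 300 bases and both strands, CCGGAAGT, a form of the ETS motif, was present in 12 of the 63 (19.0%) and in 4.00% of all promoters. The GC box GGGCGG was in 38 (60.3%) and in 35.9%, AAGATGGCG, a form of the YY1 motif, in 4 (6.35%) and in 1.49%, and TATAAA in 6 (9.52%) and in 14.2%. None of these motifs contains another, and a match is a description of letters.

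Paralogs can be told apart by 3′ tags only where their sequences differ. Such tags can lie beyond the stop codon, in bases not shown here. The last 60 coding bases, stop codon included, of 2 pairs are shown as examples of differences, from GENCODE M21 transcripts. The bases that differ within a pair are in capitals.
Rpl10 (chromosome X): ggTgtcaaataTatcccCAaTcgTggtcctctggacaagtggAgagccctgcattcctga
Rpl10l (chromosome 12): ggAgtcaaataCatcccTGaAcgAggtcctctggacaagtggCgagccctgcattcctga
Rpl39 (chromosome X): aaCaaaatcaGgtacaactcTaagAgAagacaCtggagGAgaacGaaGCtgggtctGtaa
Rpl39l (chromosome 16): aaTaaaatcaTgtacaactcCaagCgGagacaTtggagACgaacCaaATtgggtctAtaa
Rpl10 and Rpl10l differed at 7 of these 60 bases and Rpl39 and Rpl39l at 12. Over the whole coding sequence the identity was 84.8% for Rpl10 and Rpl10l and 85.3% for Rpl39 and Rpl39l. The longest run shared by the whole transcripts of a pair was 23 bases for Rpl10 and Rpl10l and 38 bases for Rpl39 and Rpl39l.

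Depth ran from 10978025 to 14935887 counts per library. Library 3 of each line differed more from libraries 1 and 2 than those did from each other. Over all genes, the chi-square per degree of freedom between numbers 1 and 2 was 3.96 (EGFP) and 4.21 (EWS-OCT4), against 23.7 to 32.3 for pairs with number 3. Of 10 stem cell markers all were higher in the EWS-OCT4 line, with a summed level of 310.3 to 379.9 CPM (counts scaled to a common library total) in the EGFP libraries against 4762 to 5307 CPM, and none was at 0 in either line. Pou5f1, which encodes OCT-4, was at 0.644 ± 0.269 CPM (EGFP) and 2.21 ± 0.719 CPM (EWS-OCT4; SD, n = 3 per line), and whether tags of the fusion count toward it is not given in the sources used here. Of 10 trophoblast markers all were lower, with summed levels of 4809 to 5397 CPM against 253.8 to 281.6 CPM, and Plac1 was at 0 in the EWS-OCT4 line. Of 7 primitive endoderm markers 4 were tested, 1 was higher and 3 were lower (104 to 123 against 5.54 to 6.63 CPM summed). Of 7 fibroblast markers 4 were tested and 1, Thy1, was higher (4.06 to 7.15 against 20.8 to 28.1 CPM summed). Of all genes tested, 33.3% were called higher in the EWS-OCT4 line and 34.1% lower. The part of these marker differences in the results below was not tested. In bulk RNA, fewer cells of a type and less RNA per cell cannot be told apart.

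Ribosomal protein genes were higher in the EWS-OCT4 line almost without exception. Of the 84 genes, 82 rose, none fell and 2, both paralog copies, did not pass the test (edgeR's quasi-likelihood test, Benjamini-Hochberg adjusted p of 0.05 over 13467 genes). Over all genes tested, 67.4% were called, 33.3% higher and 34.1% lower. The median log2 difference of the 84 genes was 1.24, a fold of 2.36, against -0.00 over all genes tested. The same genes gave 83 higher calls and a median of 1.30 with only the libraries numbered 1 and 2, where 37.6% of all genes were called higher. Each of the 84 genes was higher in all 3 EWS-OCT4 libraries than in any EGFP library, which held for 36.0% of all genes tested.

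The differences were of a similar size across the group. The quartiles of the 84 genes were 1.02 and 1.42 on the log2 scale, whereas those of all genes tested were -0.97 and 0.88. Within 0.5 of the group's median lay 72 of the 84 genes. A rise of at least 2-fold was called for 66 of them (78.6%) and for 21.8% of all genes. One of at least 3-fold was called for 10 of the 84 members, a smaller share than the 14.0% of all genes. Tested against a 1.5-fold change, 77 members were called higher, as were 22.8% of all genes, and the 5 that were lost were Rpl11, Rps19, Rps24, Rpl7l1 and Rps27l.

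**Figure D1:**
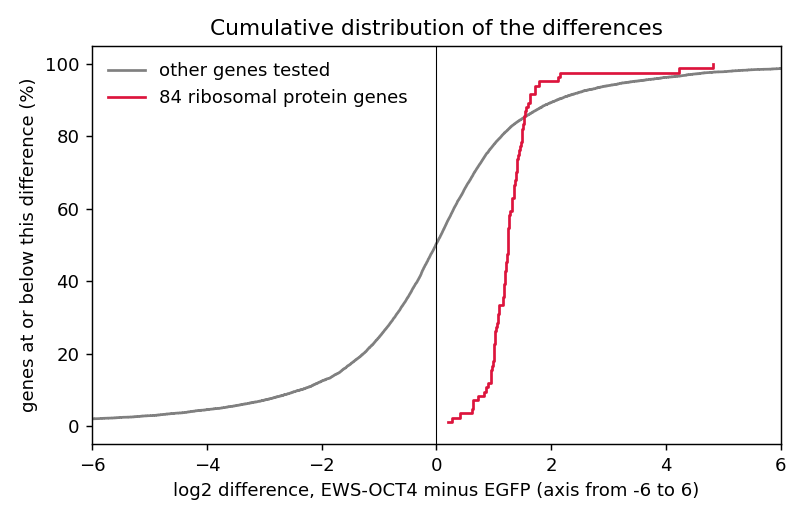
Cumulative share of genes (vertical axis, %) at or below each log2 difference between the lines (horizontal axis), for the 84 ribosomal protein genes and all other genes tested. The curve of the ribosomal protein genes climbs steeply around its median of 1.24 and starts above 0, while the other genes spread widely on both sides of 0, some beyond the axis, which runs from -6 to 6.

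As a share of all counts, the 84 genes took 3.55%, 3.38% and 4.06% of the EGFP libraries against 7.99%, 8.41% and 8.87% of those with EWS-OCT4. The 95% Wilson interval was 3.54 to 3.56% for the first of these and 8.85 to 8.89% for the last, and covers counting error only. The mean was 3.66% ± 0.353 and 8.42% ± 0.440 (SD, n = 3). Rn45s, the symbol of the ribosomal RNA precursor, also took more of the EWS-OCT4 libraries, 9.41% ± 1.78 against 6.13% ± 0.296. The EWS-OCT4 libraries held 10.4%, 10.5% and 7.36%, and the EGFP libraries 5.85 to 6.44%. Whether these counts come from the precursor or from mature ribosomal RNA was not tested. With Rn45s left out of the totals the 84 genes took 3.90% ± 0.368 and 9.30% ± 0.339. Both subunits rose in share, the large from 2.00% ± 0.200 to 4.83% ± 0.284 and the small from 1.67% ± 0.153 to 3.59% ± 0.157.

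**Figure D2:**
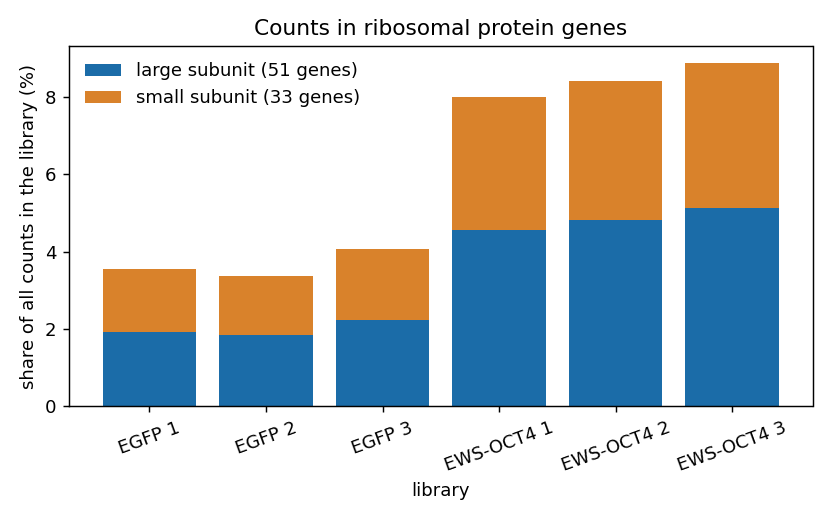
Share of all counts (vertical axis, %) in the genes of the large and small subunit, stacked for each of the 6 libraries (horizontal axis). The 3 EGFP libraries sit between 3.38 and 4.06% and the 3 EWS-OCT4 libraries between 7.99 and 8.87%.

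With the paralog copies included, the ratio of large to small subunit counts was 1.19, 1.19 and 1.21 with EGFP against 1.33, 1.34 and 1.37 with EWS-OCT4. The libraries of the lines did not overlap. The median differences of the subunits were closer. Of 51 large subunit genes 50 rose, with a median of 1.26, and of 33 small subunit genes 32 rose, with a median of 1.22. Without the paralog copies all 46 large and all 31 small subunit genes rose, with medians of 1.252 and 1.230. Over all genes tested 33.3% were called higher.

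**Figure D3:**
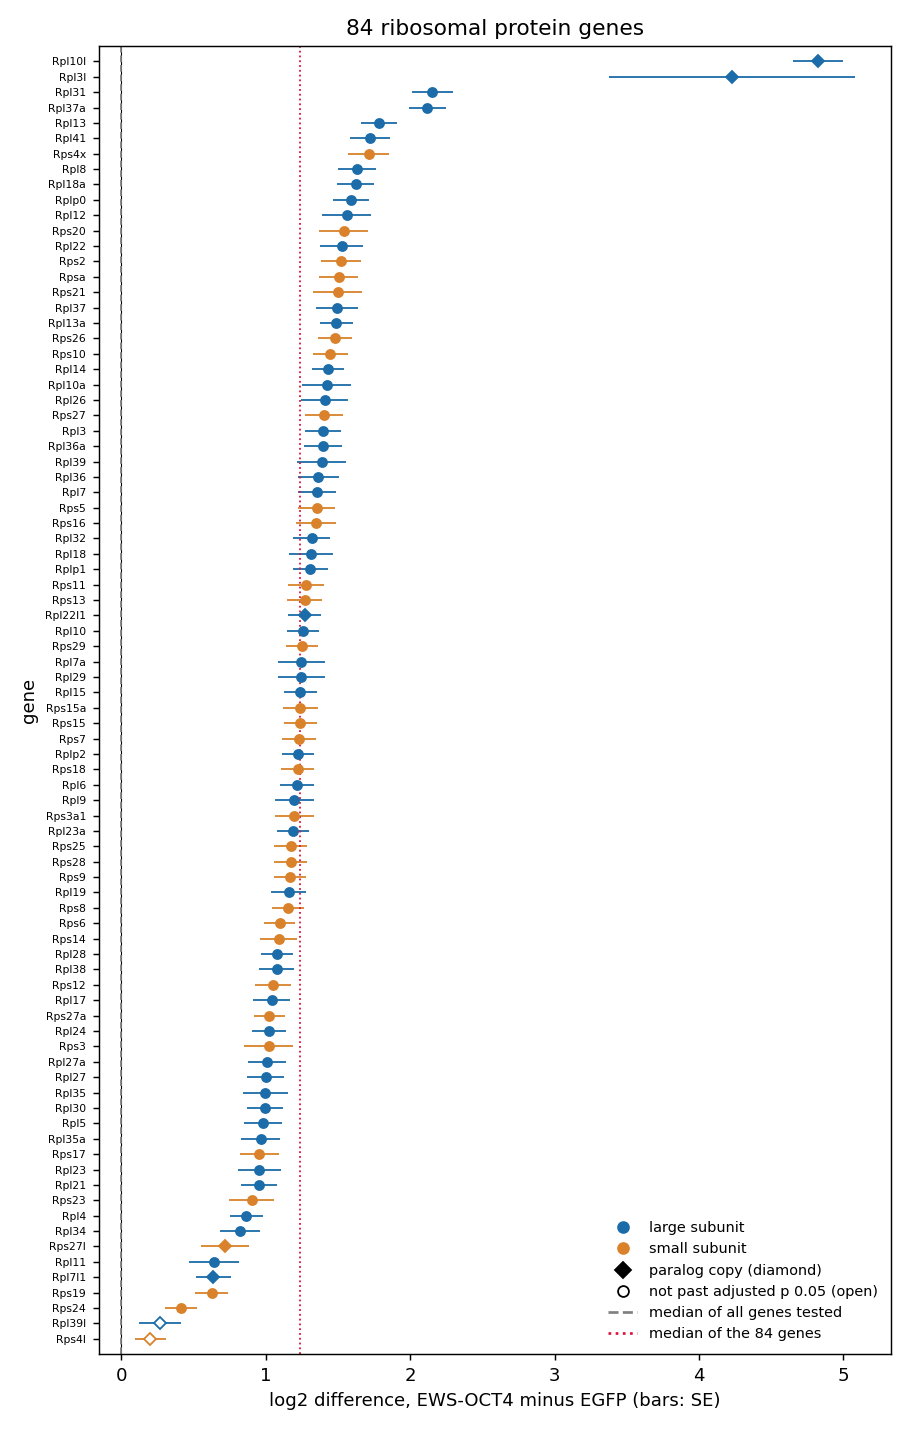
Log2 difference between the lines (horizontal axis, bars are SE) for each of the 84 genes (vertical axis), coloured by subunit, with paralog copies as diamonds and genes that did not pass the test as open symbols. Most genes lie close to the group's median of 1.24, Rpl10l and Rpl3l lie far above it, and Rps4l and Rpl39l lie lowest.

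In the large subunit the largest rises outside the paralog copies were in Rpl31 and Rpl37a. Rpl31, a protein at the exit of the nascent chain tunnel (chromosome 1, 39367842 to 39371911), had levels of 199.7, 184 and 227 CPM with EGFP against 803, 862 and 1055 CPM with EWS-OCT4. Its difference was 2.15 on the log2 scale (SE 0.14, adjusted p = 7.5e-07). Rpl37a, a zinc-binding protein (chromosome 1, 72711290 to 72713813), stood at 136, 139 and 168 CPM against 636, 680.3 and 609 CPM, a difference of 2.12 (SE 0.13, adjusted p = 3.7e-07). In both genes the lowest EWS-OCT4 library was more than 3 times as high as the highest EGFP library. Rpl31 is overlapped on the opposite strand by Tbc1d8, and the use of strand in counting is not given in the sources used here. Next in order, and named after their values were seen, were Rpl13 (1.78) and Rpl41 (1.72), which encodes the shortest of the ribosomal proteins.

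Rpl4, a core protein of the large subunit (chromosome 9, 64173375 to 64178666), had the highest level among large subunit genes. It was at 1868, 1822 and 2190 CPM with EGFP against 3574, 3678 and 3446 CPM with EWS-OCT4. Its difference of 0.86 (SE 0.11) was smaller than the median of the group and still without overlap between the lines. Tags are not divided by length here, since the kit reads transcript ends.

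The acidic stalk, which recruits the translation factors that use GTP, rose in all 3 of its genes. Its base Rplp0 rose from 543 ± 48.9 to 1636 ± 154 CPM (log2 difference 1.59, SE 0.12), Rplp1 from 393 ± 48.2 to 975 ± 56.9 CPM (1.31, SE 0.12) and Rplp2 from 828 ± 45.7 to 1931 ± 154 CPM (1.22, SE 0.11). No EWS-OCT4 library of the 3 genes overlapped an EGFP library, as for all 84 members. Of all genes tested, 33.3% were called higher and 36.0% were higher without overlap.

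Rpl5, Rpl11, Rpl23 and Rpl26, 4 of the ribosomal proteins known to bind MDM2, the ligase that marks p53 for decay, all rose. Rpl5 and Rpl11 form a particle with 5S ribosomal RNA that carries this signal. A rise was called for 82 of the 84 members and for 33.3% of all genes tested. Rpl5 rose from 788 ± 93.8 to 1552 ± 181 CPM (0.98, SE 0.13) and Rpl23 from 812 ± 78.3 to 1573 ± 299 CPM (0.95, SE 0.15), while Rpl26 rose from 684 ± 61.2 to 1815 ± 408 CPM (1.41, SE 0.16). Rpl11 (chromosome 4, 136028265 to 136053428) had 90.0, 91.9 and 88.2 CPM with EGFP against 163, 156 and 103 CPM with EWS-OCT4, a difference of 0.64 (SE 0.17, adjusted p = 0.0073). EWS-OCT4 replicate 3 was the lowest of its line and still lay above all EGFP libraries. Mdm2 itself fell from 286 ± 12.6 to 148.9 ± 7.79 CPM (-0.94, SE 0.11). Of the other genes listed for this particle, the assembly factors Rpf2 (0.64) and Rrs1 (0.59) rose, and Heatr3, which brings Rpl5 and Rpl11 to the nucleus, was at 55.6 ± 10.4 and 49.9 ± 14.3 CPM and did not pass the test. Rpl38, which is needed for the translation of some Hox mRNAs in the mouse embryo, rose from 182 ± 13.8 to 383 ± 35.3 CPM (1.07, SE 0.12).

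In the small subunit the largest rise was in Rps4x, an X-linked gene (chromosome X, 102184941 to 102189394). Its levels were 214, 207 and 266 CPM with EGFP against 699, 695 and 858 CPM with EWS-OCT4 (1.71, SE 0.14, adjusted p = 3.5e-06). Rps20, a protein of the subunit's head with the highest level of the small subunit over the 6 libraries (chromosome 4, 3831334 to 3835665), was at 1445, 1375 and 1745 CPM against 3796, 3917 and 5551 CPM (1.54, SE 0.17). EWS-OCT4 replicate 3 was the highest library for Rps20. Rps2 rose from 74.4 ± 8.81 to 213 ± 24.0 CPM (1.52, SE 0.14) and Rpsa, which is also known as the laminin receptor precursor, from 309 ± 38.7 to 876 ± 106 CPM (1.503, SE 0.14).

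Rps6, Rps25, Rps27a and Rps19, chosen for their known roles, also rose, as did 82 of the 84 members and 33.3% of all genes tested. Rps6, the substrate of the S6 kinases, rose from 292 ± 24.3 to 624 ± 9.61 CPM (1.10, SE 0.11) and Rps25, which viral and cellular internal ribosome entry sites use, from 272 ± 24.0 to 612 ± 39.7 CPM (1.17, SE 0.12). Rps27a, which is made as a fusion with ubiquitin, rose from 558 ± 38.6 to 1135 ± 13.0 CPM (1.02, SE 0.11). Rps19, the gene most often mutated in Diamond-Blackfan anaemia, rose from 224 ± 17.9 to 346 ± 14.6 CPM (0.62, SE 0.11, adjusted p = 0.00066).

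Rps24 had the smallest difference of the 77 genes that are not paralog copies. It lies on chromosome 14 (24487125 to 24496959) and was at 1028, 991 and 1062 CPM with EGFP against 1335, 1499 and 1264 CPM with EWS-OCT4. The difference was 0.41 (SE 0.11, adjusted p = 0.0075), and the libraries of the lines did not overlap. Its start site, shown above, holds a pyrimidine run of 8 bases.

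Medians of subsets by position, introns and start sequence lay close to that of the group. The 84 genes lie on 19 chromosomes, with 4 on chromosome X. Among the genes that are not paralog copies, the 4 X-linked ones (Rpl10, Rpl36a, Rpl39 and Rps4x) had a median of 1.39 and the other 73 one of 1.24. The 30 genes with a small nucleolar RNA gene inside them had a median of 1.252 and the 47 without one 1.239. The 26 genes with a pyrimidine run at the annotated start had a median of 1.24 and the 31 without one 1.23, and the 11 genes with CCGGAAGT had a median of 1.22 against 1.24 for the 46 without it. These are descriptions without a test.

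The 2 largest and the 2 smallest differences of the group were all in paralog copies. Rpl10l, an autosomal retrogene of the X-linked Rpl10 that is known from the testis (chromosome 12, 66283379 to 66284401, minus strand), had 11.99, 11.1 and 14.4 CPM with EGFP against 333, 313 and 418 CPM with EWS-OCT4. Its difference was 4.82 (SE 0.17, adjusted p = 2.4e-08), a fold of 28.3, and the largest of the 84 genes. Rpl10, which is added late in maturation and is needed for the subunits to join (chromosome X, 74270812 to 74273135), rose from 230 ± 10.2 to 551 ± 42.0 CPM (1.26, SE 0.11). Rpl10l thus took 4.91%, 4.83% and 5.66% of the pair's counts with EGFP against 39.7%, 34.7% and 42.8% with EWS-OCT4.

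**Figure D4:**
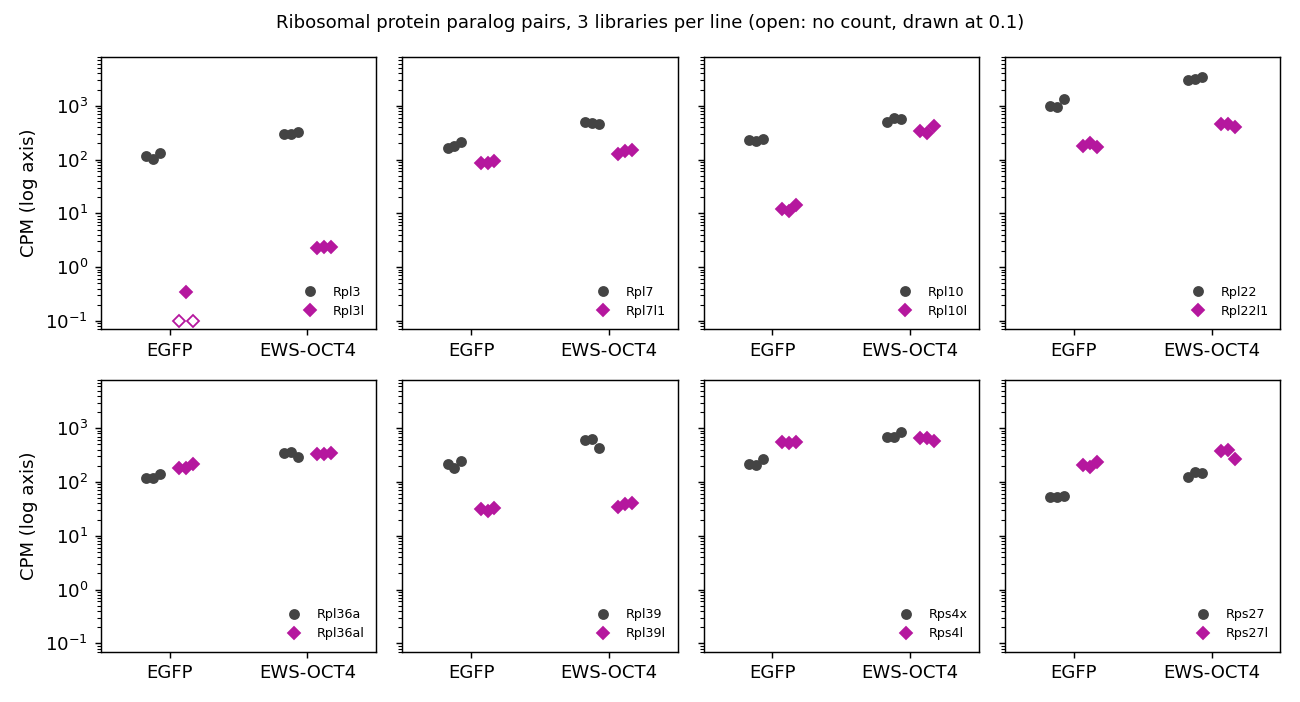
Level of both genes of 8 paralog pairs (vertical axis, CPM on a log axis) in each of the 3 libraries of the 2 lines (horizontal axis). Rpl10l rises from near 12 CPM to between 313 and 418 CPM, close to Rpl10, open symbols mark Rpl3l libraries without a count (drawn at 0.1), and Rpl39l and Rps4l lie near their EGFP levels where Rpl39 and Rps4x are higher.

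Rps4l and Rpl39l did not pass the test. Rps4l, a retrocopy of Rps4x that GENCODE classes as a transcribed processed pseudogene (chromosome 6, 148354656 to 148355598), was at 550.4, 521 and 563 CPM against 655, 644 and 578 CPM (0.20, SE 0.11, adjusted p = 0.126). The EWS-OCT4 libraries all lay above the EGFP ones, and without EWS-OCT4 replicate 3 the difference was 0.26 with adjusted p = 0.0205. Its share of the counts of Rps4x and Rps4l went from 70.5% ± 2.22 to 45.6% ± 4.63. No coding identity was obtained for this pair, and Tmtc1 overlaps Rps4l on the opposite strand. How well tags separate Rps4l from Rps4x was not tested, so this share is uncertain. Rpl39l, the testis paralog of the X-linked Rpl39 (chromosome 16, 10170226 to 10174911), was at 32.1, 28.5 and 32.9 CPM against 34.0, 38.7 and 39.8 CPM (0.27, SE 0.15, adjusted p = 0.128). Rpl39 rose from 212 ± 32.3 to 555 ± 107 CPM (1.39, SE 0.17), and the share of Rpl39l went from 12.9% ± 0.934 to 6.52% ± 1.67.

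The other copies rose. Rpl22l1 rose from 182 ± 14.97 to 440 ± 27.9 CPM (1.27, SE 0.12), close to the group's median, and Rpl22, which binds RNA and represses its paralog in some cells, from 1105 ± 217 to 3182 ± 198 CPM (1.53, SE 0.15). The share of Rpl22l1 was 14.5% ± 3.01 and 12.2% ± 1.32, and the libraries of the lines overlapped. Rps27l, which p53 can induce, rose from 210 ± 21.1 to 346 ± 72.7 CPM (0.72, SE 0.16, adjusted p = 0.003) and Rps27 from 53.2 ± 2.36 to 141 ± 17.4 CPM (1.40, SE 0.13). Rpl7l1, a nucleolar relative of Rpl7, rose from 89.7 ± 4.20 to 139.5 ± 12.7 CPM (0.64, SE 0.12), and Rpl7 from 185 ± 27.7 to 474 ± 15.8 CPM (1.35, SE 0.13). Rpl3l, known from striated muscle, had 0, 5 and 0 counts with EGFP against 25, 26 and 28 with EWS-OCT4, a difference of 4.23 (SE 0.85, adjusted p = 0.0014). Without EGFP replicate 2, which held its counts, Rpl3l was at least 11.2-fold higher (floor of 3 counts per library), and its partner Rpl3 rose from 116 ± 14.4 to 306 ± 14.9 CPM (1.40, SE 0.13).

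Shares of counts within a pair were compared for 8 pairs. In 7 of them the libraries of the lines did not overlap, with a 2-sided exact permutation p of 0.10 each, the smallest that 3 against 3 libraries allow, and 0.114 after adjustment over the pairs. For Rpl22 and Rpl22l1 the exact permutation p was 0.30. The share of the copy was higher in the EWS-OCT4 line for Rpl10l (by 33.9 percentage points) and Rpl3l (by 0.649), and lower for the remaining pairs, among them Rpl36a and Rpl36al. Rpl36al, which the symbol rule does not hold, took 60.2% ± 0.632 and 50.4% ± 3.60 of its pair, and Rpl36a itself rose from 126 ± 11.6 to 332 ± 39.0 CPM (1.39, SE 0.13).

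The members were not equally steady between libraries of a line. In the EGFP line, library 3 was above the mean of libraries 1 and 2 for 79 of the 84 genes, with a median log2 ratio of 0.20. In the EWS-OCT4 line, library 3 was above for 53 genes and below for 31, with 23 genes off by at least 1.25-fold. Over the 84 genes the chi-square per degree of freedom was 16.1 between EWS-OCT4 libraries 1 and 2 but 199.6 and 217 with library 3, against 4.29, 15.7 and 16.3 in the EGFP line. Among genes named after their values were seen, Rps3 was at 1716, 1832 and 1161 CPM in the EWS-OCT4 libraries and Rps21 at 615, 654 and 423 CPM, whereas Rpl10a was at 836, 848 and 1217 CPM and Rpl35 at 807, 833 and 1160 CPM. All EWS-OCT4 values of these 4 genes lay above their EGFP values.

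**Figure D5:**
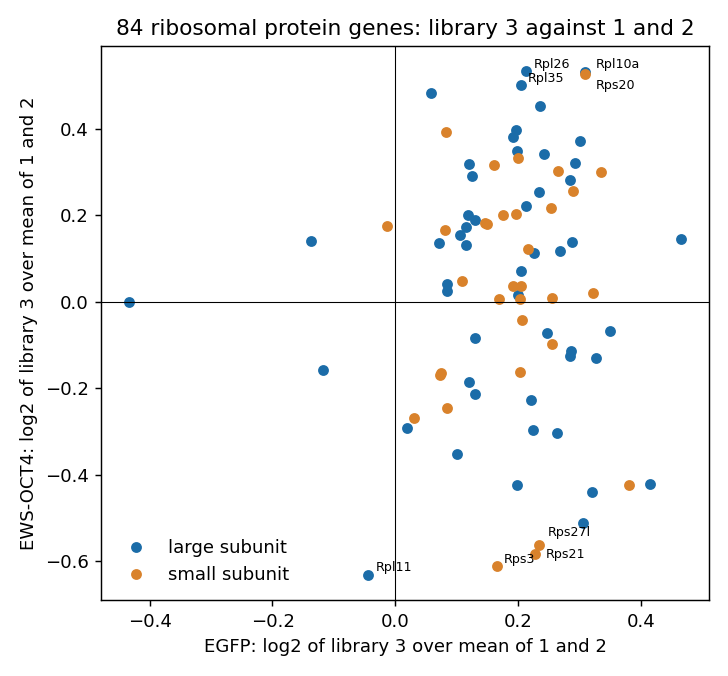
Log2 ratio of library 3 to the mean of libraries 1 and 2 (with 0.5 CPM added) in the EGFP line (horizontal axis) and in the EWS-OCT4 line (vertical axis) for each of the 84 genes. Points lie mostly right of 0 within a narrow band in the EGFP line and spread from -0.63 to 0.53 in the EWS-OCT4 line.

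Ribosomal protein genes that the symbol rule leaves out moved in the same direction. Fau, whose product is cut into a ubiquitin-like protein and a small subunit protein, rose from 331 ± 15.003 to 755 ± 83.7 CPM (1.19, SE 0.12). Gnb2l1, which encodes the small subunit scaffold RACK1, rose from 1137 ± 117 to 2261 ± 102 CPM (0.99, SE 0.12). Gnb2l1 was named for its role after its values were seen. All 5 genes of this list in the files rose, with a median of 1.19, against 33.3% called higher over all genes tested, and Rpl36al, Rpl37rt and Rps27rt are the other members.

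Levels of some members and of their retrocopies were counted side by side. Rpl37rt, a retrocopy, was at 894 ± 118 and 2194 ± 287 CPM, above Rpl37 at 386 ± 34.2 and 1085 ± 190.3 CPM. Rps27rt was at 115 ± 8.80 and 263.8 ± 14.2 CPM, above Rps27. The last 100 bases of the transcript of 4 members (Rpl9, Rpl10, Rpl36a and Rps27) were found whole in a transcript of another gene. Only exact matches to the end of the chosen transcript were sought. Rpl37 is not among the 4 despite its retrocopy, so other members may have close copies too. For genes with such copies the level of the single gene is uncertain, since the counting rule for tags with several matches is not given in the sources used here. The pair shares above that use Rpl10, Rpl36a or Rps27 are uncertain for the same reason. A gene on the opposite strand overlaps 24 of the 84 genes.

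A list of genes named for TOP mRNAs, mostly translation factors, was also measured. It also holds Tpt1, Hnrnpa1, Npm1, Nap1l1, Fau and Gnb2l1, and the start sequences of the listed genes were not examined. Of 19 listed genes tested, 14 rose, none fell and 5 did not pass, with a median of 0.91. Over all genes tested 33.3% were called higher and 34.1% lower. The elongation factor subunits Eef1b2 (991 ± 46.8 to 3401 ± 124 CPM, 1.78, SE 0.11), Eef1g (394 ± 36.2 to 1149 ± 28.0 CPM, 1.55, SE 0.11) and Eef1d (149.6 ± 6.98 to 425 ± 33.1 CPM, 1.51, SE 0.11) had the largest changes. Eef1a1, named after its values were seen, was at 1603 ± 213 and 3323 ± 1202 CPM (1.05, SE 0.25). The initiation factors Eif3e, Eif3l, Eif4b and Eif2s3x and the histone chaperone Nap1l1 did not pass the test. This list shares Fau and Gnb2l1 with that of the genes outside the symbol rule.

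Among genes that regulate the tract, and dedicated chaperones of ribosomal proteins, calls in either direction were no more frequent than the 67.4% of all genes tested. Of 16 genes of mTORC1 and TOP control 3 rose, 4 fell and 9 did not pass (median 0.04). Eif4ebp1, an inhibitor of cap-dependent initiation, rose from 116 ± 7.92 to 368 ± 5.27 CPM (1.66, SE 0.11), while Akt1s1, an mTORC1 inhibitor, fell from 11.53 ± 2.52 to 4.36 ± 0.511 CPM (-1.40, SE 0.26) and the scaffold Eif4g1 from 983 ± 36.6 to 528 ± 16.5 CPM (-0.90, SE 0.10). Larp1, chosen after its values were seen, fell from 577 ± 42.4 to 466.8 ± 25.3 CPM (-0.31, SE 0.11, adjusted p = 0.0308). Of 9 chaperone genes 4 rose, 2 fell and 3 did not pass (median 0.20). Tsr2, which loads Rps26, rose from 33.6 ± 1.23 to 72.8 ± 6.42 CPM (1.12, SE 0.13), Pdcd2l, a relative of the Rps2 chaperone, from 35.2 ± 6.80 to 58.1 ± 19.8 CPM (0.72, SE 0.26, adjusted p = 0.0306), and Ltv1, which holds Rps3 during assembly, fell from 199.1 ± 18.2 to 72.0 ± 9.52 CPM (-1.47, SE 0.14).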

How the data were processed

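Per the labels' protocols, 500 ng of total RNA per sample went into a Lexogen QuantSeq library, which reads transcript 3′ ends. The deposited values were raw counts per gene symbol, 1 file per library. The submitters' processing notes name Bowtie2, edgeR and mm10, without versions or roles. The sources used here do not name the counting tool, the annotation or the handling of strand. The 35 symbols on more than 1 line (79 lines) were summed, and none of them is a member. Groups and replicate numbers came from the titles. In edgeR 4.0.16 the counts received TMM scaling, were filtered with filterByExpr (minimum count 10, minimum total 15; 13467 genes tested, all 84 members among them) and tested between the lines with the quasi-likelihood F test (robust, 2-sided), adjusted by Benjamini-Hochberg over all genes tested, at 0.05. The SE is the difference divided by the square root of F. Levels are TMM-scaled CPM, as mean ± SD, n = 3. Before TMM scaling, 1 count stood for 0.0670 to 0.0911 CPM. Positions are from GENCODE M21 (GRCm38, the assembly of mm10), which held all 84 members. Promoters are RefSeq's, using the first start listed for a gene.

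The fit was tested on simulated data. The rule for named genes took both genes of each pair, the 4 largest rises and falls per subunit, members with known roles, the highest level and the 2 least certain calls per subunit, and the 3 largest called changes of each other list. A search for the genes most like the members was planned but is not reported, since the 6 libraries form 2 clusters. The share of a pair is that of the copy, which for Rps4l, Rps27l and Rpl36al was the more common gene in the EGFP line. The members and lists were chosen with earlier results of these data known. Alternatives were each library left out, a block on replicate number, other scalings, filters and thresholds, limma-voom (limma 3.58.1) and DESeq2 1.42.0.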

Additional observations from a re-analysis of the deposited data

How the results depend on the processing

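The number of members called higher was 82 in the main analysis, 81 with a filter of at least 10 CPM, which left 83 members, 77 against a 1.5-fold change and 82 or 83 under all other alternatives, while none was called lower under any. Their median difference lay between 1.18 and 1.30. Over all genes 9073 were called, 8122 to 9385 with 1 library left out and 6399 against a 1.5-fold change. The difference in the share of counts was 4.76 percentage points, 4.54 to 4.98 with 1 library left out, 4.73 with numbers 1 and 2 only (chosen after seeing the data) and 5.39 with Rn45s out of the totals. With a replicate block 82 members and 8968 genes were called. Same-numbered libraries had correlated deviations of 0.04, 0.05 and 0.15 for numbers 1, 2 and 3, and libraries did not all correlate best with their own number. The numbers were therefore not taken to pair the samples. The value of 0.15 was the highest between the lines, whereas libraries numbered 3 had -0.09 to -0.10 with numbers 1 and 2 of the other line. A source shared by the libraries numbered 3 was not tested. Of 577 alternative values of 34 named members 570 kept their direction and side of the threshold and none reversed. The 7 that did not were the 5 lost calls against a 1.5-fold change and Rps4l, which passed without EWS-OCT4 replicate 3 and with numbers 1 and 2 only (0.30, adjusted p = 0.00011). The 0 to 28 counts of Rpl3l per library limit its fold.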

Other observations

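Symbols of ribosomal protein pseudogenes in the files showed the same direction as the members. Rplp2-ps1 rose from 1814 ± 148 to 3989 ± 145.9 CPM (log2 difference 1.14, SE 0.11), above Rplp2 itself in both. Rpl31-ps12 rose from 81.7 ± 14.8 to 259.6 ± 35.2 CPM (1.67, SE 0.16), and Rpl14-ps1, Rpl34-ps1, Rps15a-ps6 and Rps19-ps3 rose by 1.04, 1.07, 0.97 and 0.84. Rps15a-ps4 was at 30.6 ± 4.02 and 46.3 ± 17.4 CPM and did not pass the test (0.60, SE 0.26, adjusted p = 0.0677). Whether these tags come from the pseudogenes or from their parent genes was not tested. All of them were chosen after their values were seen.

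The ribosomal S6 kinase genes, whose symbols begin like those of the small subunit genes but which encode kinases, are given as values only. Rps6ka2 rose from 1.78 ± 0.398 to 20.8 ± 0.801 CPM (3.55, SE 0.24) and Rps6kl1 from 4.13 ± 0.246 to 11.9 ± 1.74 CPM (1.52, SE 0.24). Rps6ka4 fell from 16.5 ± 1.83 to 4.99 ± 0.659 CPM (-1.73, SE 0.22). Rps6ka1 was at 99.2 ± 3.58 and 108 ± 4.41 CPM and Rps6kb1 at 51.1 ± 1.39 and 65.5 ± 11.1 CPM, and neither passed the test. These genes were also named after their values were seen.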
